A study of Mus musculus with 8 samples.

Results

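The nuclear-encoded subunits of the mitochondrial respiratory chain were followed across 4 groups of reprogramming cells. Genes were taken by symbol, as those that begin with Nduf and then a, b, c, s or v, with Cox and a digit of 4 to 8, with Atp5 or with Uqcr, together with Sdha, Sdhb, Sdhc and Sdhd, leaving out symbols with -ps. The rule took 91 of the 26930 genes in the table. Of these, 84 carry the symbol of a subunit: 36 of complex I, 4 of complex II, 8 of complex III, 20 of complex IV and 16 of complex V. Atp5l2, among the last, is annotated as a pseudogene and had no counts. Ndufa4 and its paralog Ndufa4l2 were counted with complex IV, where the Ndufa4 protein is found. The other 7 carry such a symbol and are not subunits of the complex it names: the complex I assembly factors Ndufaf1, Ndufaf2, Ndufaf3 and Ndufaf4, and Atp5s, Atp5sl and Cox4nb. They were kept apart. The 13 subunits encoded by mitochondrial DNA were not analysed here.

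The cells were mouse embryonic fibroblasts on day 8 of reprogramming towards pluripotency by OKSM, the factors Oct4, Klf4, Sox2 and Myc, in a medium named AGi in the labels. They carried K36M, a histone H3 mutant with methionine in place of the lysine at that position, or were WT, which the labels also describe as H3. Each genotype was kept with TGF-beta1 at 2.5 ng/ml or with Repsox, which blocks the type I receptor for TGF-beta, at 250 nM. The 4 groups were K36M with TGF-beta, K36M with Repsox, WT with TGF-beta and WT with Repsox, with 2 libraries of RNA depleted of ribosomal RNA in each. All groups shared the factors, the day and the medium. Every group had one agent or the other, so the comparison of the agents has no untreated level. Whether both libraries of a group are separate cultures is not stated, and p-values may then measure technical spread only.

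The respiratory chain passes electrons from NADH through complex I, or from succinate through complex II, to ubiquinone, then through complex III to cytochrome c and through complex IV to oxygen. Complexes I, III and IV pump protons across the inner mitochondrial membrane, and complex V, the ATP synthase, uses the gradient to make ATP. Fibroblasts that become pluripotent cells are known to shift the balance of their energy metabolism towards glycolysis, and several complex IV subunits have alternative forms that are used in particular tissues or at low oxygen.

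The libraries held 10928302 to 15594217 counts. The 91 genes took 0.793 to 0.830% of the counts in the K36M libraries, 0.656 and 0.675% in WT with TGF-beta and 0.792 and 0.816% in WT with Repsox. The groups differed in cell markers. The summed level of 10 fibroblast and mesenchymal markers was 947 and 967 CPM (counts scaled to a common library size) in K36M with TGF-beta, 207 and 238 in K36M with Repsox, 11580 and 12960 in WT with TGF-beta and 3747 and 3398 in WT with Repsox. The summed level of 8 pluripotency markers was 791 and 786 CPM in K36M with TGF-beta, 1245 and 1214 in K36M with Repsox, 31.5 and 22.0 in WT with TGF-beta and 1028 and 865 in WT with Repsox. WT with TGF-beta held the highest fibroblast sums and the lowest pluripotency sums. The fibroblast markers did not all go one way. In WT, TGF-beta against Repsox gave 6 higher and 3 lower of the 10. Thy1, among the lower ones, had 25.7 and 31.2 CPM in WT with TGF-beta and 552 and 550 in WT with Repsox. In bulk RNA, fewer cells of a type and less RNA per cell cannot be told apart, and the part of cell makeup in the results below was not tested. The WT libraries with Repsox differed more from each other than those of any other group. Over members with at least 5 CPM, the SD of the log2 ratio between the libraries was 0.28 there and 0.14 to 0.16 in the other 3 groups. Atp5l, Cox7b, Ndufa12, Ndufb4 and Uqcrb were over 1.5-fold lower in replicate 1 than in replicate 2 of WT with Repsox. Fold changes, counts of calls and medians that rest on this group are therefore also given without replicate 1 where that ended a call or moved the value by over 1.5 times.

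Genes were called at an adjusted p below 0.05 by edgeR's quasi-likelihood test with Benjamini-Hochberg adjustment over all 15789 genes tested, of which 87 were members. Cox6a2, like Atp5l2, had no counts, and Cox8b and Cox8c had at most 3 counts in a group. These 4 were not tested. In K36M against WT with Repsox, 20 members were higher and 7 lower, where 28.8% of all tested genes were higher and 26.9% lower. K36M against WT with TGF-beta gave 21 higher and 22 lower members, where calls over all genes were 36.4% higher and 33.9% lower. In WT, TGF-beta against Repsox gave 18 higher and 16 lower members, where 29.0% of all genes were higher and 33.4% lower. Between the same treatments, K36M cells gave 16 higher and 15 lower members, where 24.7% of all genes were higher and 23.6% lower. The effect of TGF-beta against Repsox differed between K36M and WT for 29 members, 16 with a positive difference and 13 with a negative one, where 28.5% of all genes had a positive and 22.6% a negative difference.

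Most subunit genes lay within a 2-fold difference in every comparison. In K36M against WT with TGF-beta, 49.4% of the tested members were called in either direction and 70.3% of all genes. A log2 fold change beyond 1 in size was fitted for 8 of the 87 members in that comparison, 9.20%, and for 42.1% of all genes. In WT with TGF-beta against Repsox it was fitted for 6 members, 6.90%, against 34.4% of all genes. The median log2 fold change of the members was 0.06 in K36M against WT with Repsox and 0.07 with TGF-beta, beside 0.04 and 0.05 over all genes. For TGF-beta against Repsox it was 0.04 in WT and -0.06 in K36M, beside -0.07 and 0.01 over all genes. The sign of 2 of these medians rested on 1 library. Without WT Repsox replicate 1, the members stood at -0.01 in K36M against WT with Repsox, beside 0.05 over all genes. For TGF-beta against Repsox in WT they then stood at -0.02, beside -0.04 over all genes. Among the members, the largest fold changes lay in complex IV in all 4 comparisons.

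**Figure D1:**
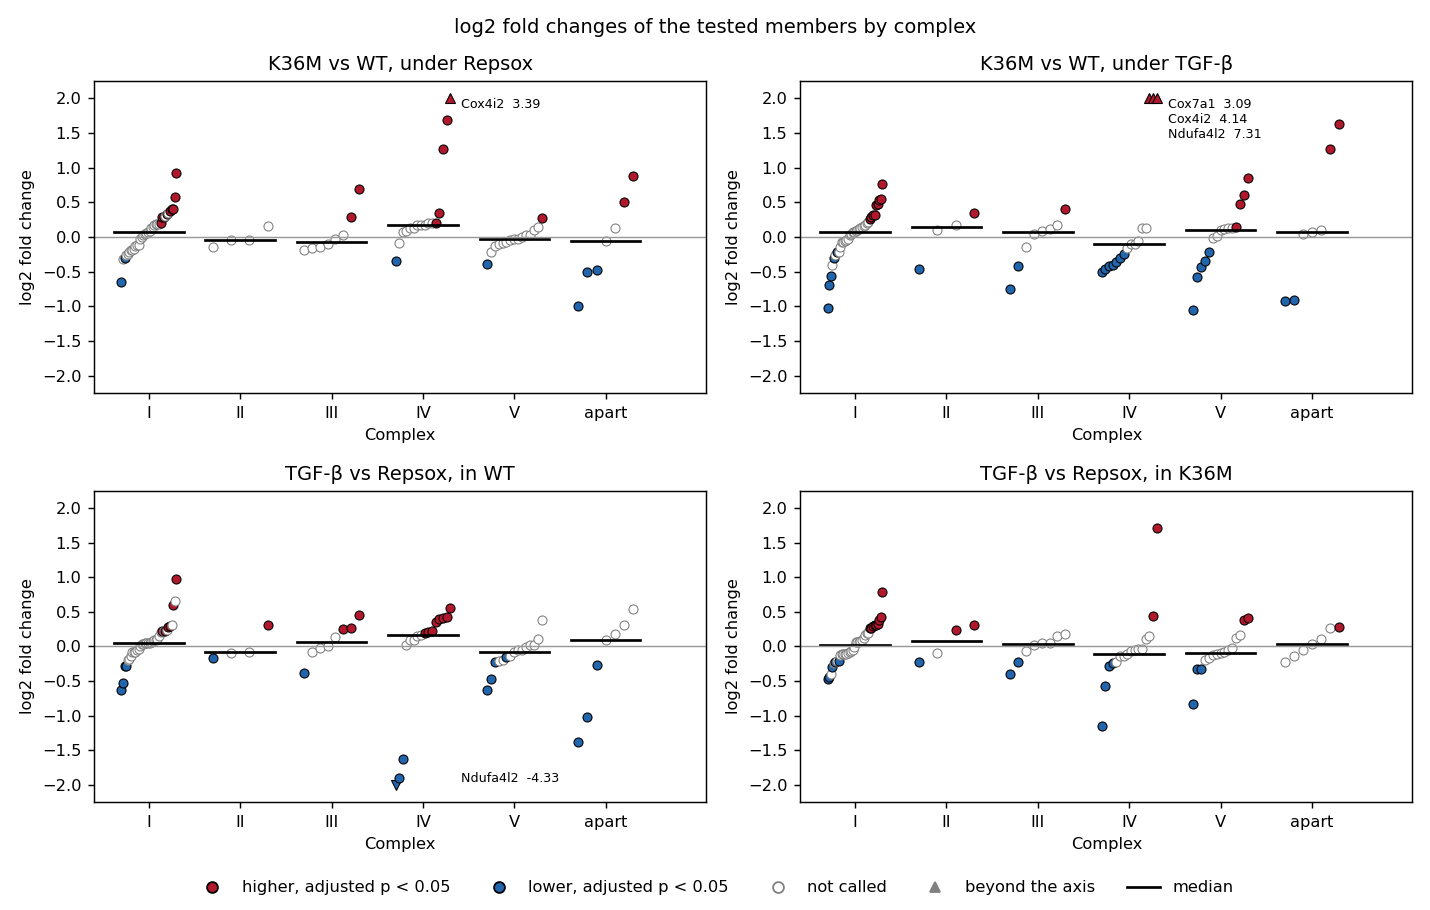
log2 fold change (y axis) of each tested member in 4 comparisons, by complex (x axis) and with the 7 genes kept apart at the right, where red points were called higher, blue points lower, open points were not called and the line is the median of all tested members. Triangles stand for values beyond 2, written beside them, and Cox7b2, which had 0 to 3 counts in each WT group, is not drawn; most subunits lie within 1 of 0, and complex IV holds the widest spread, up to 7.31 for Ndufa4l2 in K36M against WT with TGF-beta.

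Alternative forms of complex IV subunits were the members with the largest differences between K36M and WT, though Cox6b2, given below, was lower in K36M. Ndufa4l2 (mm9, chr10:126951995-126954208, plus strand) is a paralog of Ndufa4 known to be induced at low oxygen. It had 51.4 and 50.9 CPM in K36M with TGF-beta, 16.4 and 14.7 CPM in K36M with Repsox, 0 and 0.574 CPM in WT with TGF-beta and 6.07 and 6.88 CPM in WT with Repsox. No 2 groups overlapped, and WT with TGF-beta had only 8 counts in both libraries together, against 1240 in K36M with TGF-beta. Ndufa4l2 was higher in K36M than in WT by a log2 fold change of 7.31 ± 0.30 with TGF-beta (SE, adjusted p = 1.26e-15) and of 1.27 ± 0.19 with Repsox (adjusted p = 7.62e-06). TGF-beta against Repsox moved it in opposite directions in the genotypes. It rose by 1.71 ± 0.16 in K36M (adjusted p = 8.22e-09) and fell by 4.33 ± 0.40 in WT (adjusted p = 3.27e-09), and the difference between these effects was 6.04 ± 0.42 (adjusted p = 5.77e-11). All 5 calls held under every alternative that was run.

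Cox4i2 (mm9, chr2:152579909-152590773, plus strand), the form of subunit 4 known from lung and from low oxygen, was also higher in K36M. It had 4.38 and 2.80 CPM in K36M with TGF-beta, 7.90 and 8.04 CPM in K36M with Repsox, 0.172 and 0.215 CPM in WT with TGF-beta and 0.404 and 1.13 CPM in WT with Repsox. Every K36M library lay above every WT library. The log2 fold change of K36M against WT was 4.14 ± 0.56 with TGF-beta (adjusted p = 8.60e-07) and 3.39 ± 0.39 with Repsox (adjusted p = 1.35e-07), or 2.80, still called, without WT Repsox replicate 1. It was lower with TGF-beta than with Repsox by -1.14 ± 0.31 in K36M (adjusted p = 0.00432) and -1.89 ± 0.73 in WT (adjusted p = 0.0288). The call in K36M was lost without K36M TGF-beta replicate 2, at -0.86. The call in WT was lost under 6 of 18 alternatives: limma-voom at -1.59, removal of a trend on transcript length at -1.54 with and without a replicate block, and leaving out WT Repsox replicate 2 at -1.01 or either WT TGF-beta library at -1.75 and -2.07. At most 21 counts lay behind either WT group.

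Cox7a1 (mm9, chr7:30969190-30971047, plus strand), the heart and skeletal muscle form of subunit 7a, had 6.64 and 2.71 CPM in K36M with TGF-beta, 5.86 and 5.15 CPM in K36M with Repsox, 0.516 and 0.574 CPM in WT with TGF-beta and 1.82 and 1.59 CPM in WT with Repsox. Both K36M groups lay above both WT groups; the K36M libraries with TGF-beta were themselves far apart. Cox7a1 was higher in K36M by 3.09 ± 0.47 with TGF-beta (adjusted p = 4.59e-06) and by 1.69 ± 0.37 with Repsox (adjusted p = 0.000524), and it fell by 1.62 ± 0.54 with TGF-beta against Repsox in WT (adjusted p = 0.0117). In K36M the treatments differed by -0.22 ± 0.33, which did not pass the test. The summed level of 11 striated muscle markers was 60.4 and 71.1 CPM in K36M with TGF-beta, 60.2 and 59.0 in K36M with Repsox, 32.7 and 33.2 in WT with TGF-beta and 50.4 and 48.4 in WT with Repsox. Ttn alone made up most of these sums, with 39.4 and 46.05, 44.9 and 47.1, 26.5 and 23.9, and 47.9 and 44.8 CPM in that order. Of 8 tested markers, 7 were higher and 0 lower in K36M than in WT with TGF-beta (median log2 fold change 2.22). With Repsox, 6 were higher and 0 lower (median 2.20). The part of these markers in the Cox7a1 values was not tested. Cox7b2, a testis form of subunit 7b, stood near the floor. It had 8 counts in K36M with TGF-beta, 29 in K36M with Repsox, 0 in WT with TGF-beta and 3 in WT with Repsox. It was at least 2.81-fold higher in K36M with TGF-beta, from 3 counts over the WT group, and the ratio with Repsox was 9.82 with an exact 95% counting interval of 3.05 to 50.4. All 3 WT counts with Repsox lay in replicate 2, and the call was lost without replicate 1, where the fitted log2 fold change was 2.16 against 3.17 with it. The call with TGF-beta was lost without either WT TGF-beta library or K36M TGF-beta replicate 1. Cox6a2, Cox8b and Cox8c, muscle and testis forms, had at most 3 counts in a group.

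The common partners Cox4i1 and Cox7a2 were called in no comparison. Cox4i1 had 305 and 260 CPM in K36M with TGF-beta, 259 and 248 CPM in K36M with Repsox, 299 and 304 CPM in WT with TGF-beta and 279 and 259 CPM in WT with Repsox. Cox7a2 had 64.2 and 70.6 CPM in K36M with TGF-beta, 67.5 and 71.3 in K36M with Repsox, 65.0 and 58.2 in WT with TGF-beta and 55.9 and 65.2 in WT with Repsox. Ndufa4 itself was lower in K36M than in WT with TGF-beta by -0.50 ± 0.11 (adjusted p = 0.000273). In WT, it rose by 0.56 with TGF-beta against Repsox (adjusted p = 9.55e-05), or by 0.35 without WT Repsox replicate 1. Per kilobase of exon, Ndufa4l2 made up 26.5 ± 1.28% of the pair Ndufa4l2 and Ndufa4 in K36M with TGF-beta, 9.65 ± 0.438% in K36M with Repsox, 0.148 ± 0.209% in WT with TGF-beta and 4.57 ± 0.535% in WT with Repsox (SD, n = 2 each). Cox7a1 made up 12.5 ± 7.27% and 14.1 ± 1.57% of its pair with Cox7a2 in K36M with TGF-beta and with Repsox, against 1.81 ± 0.272% and 5.56 ± 1.08% in the WT groups with the same agents. Cox4i2 stayed below 3% of its pair with Cox4i1 in every group, with the highest mean, 2.64 ± 0.111%, in K36M with Repsox. For Ndufa4l2 and Cox4i2, as for Cox7a1, the shares of the K36M groups lay above those of the WT groups.

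**Figure D2:**
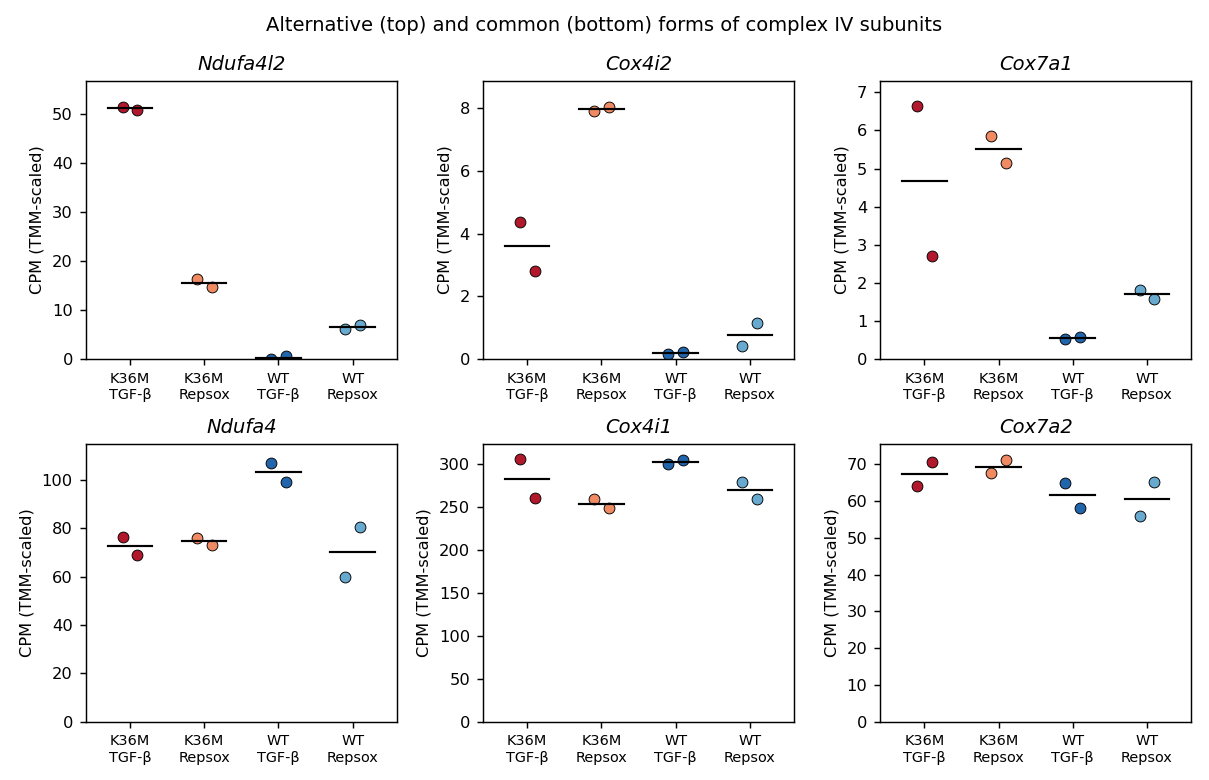
Level in CPM on TMM-scaled library sizes (y axis) of 3 alternative forms (top) and their common partners (bottom) in the 4 groups (x axis), with a point for each of the 2 libraries and a line at their mean. Ndufa4l2, Cox4i2 and Cox7a1 are higher in both K36M groups than in both WT groups, while Cox4i1 lies between 248 and 305 CPM in every library.

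Promoter sequences are printed for 4 members that differed between groups, to show which known motif letters their start regions hold. They are RefSeq windows on GRCm38.p6 from 250 bases before to 50 bases after the start, 5′ to 3′ on the strand of the gene. Capitals mark GCGCA, any base and GCGC in a row, the motif of NRF1, a regulator of respiratory chain genes, in Uqcrc1, Atp5g2 and Ndufb4. The first marked stretch in Uqcrc1, printed as GCGCTTGCGC, matches on the other strand. In Cox7a1 they mark the core ACGTG of hypoxia response elements, which lies on the other strand and is printed as CACGT. The Atp5g2 window also holds this core, on the other strand as cacgt, and it is not marked there. Both motifs were searched on both strands, and the marked matches do not overlap one another.
Uqcrc1 (chr9:108936398-108936697, plus strand): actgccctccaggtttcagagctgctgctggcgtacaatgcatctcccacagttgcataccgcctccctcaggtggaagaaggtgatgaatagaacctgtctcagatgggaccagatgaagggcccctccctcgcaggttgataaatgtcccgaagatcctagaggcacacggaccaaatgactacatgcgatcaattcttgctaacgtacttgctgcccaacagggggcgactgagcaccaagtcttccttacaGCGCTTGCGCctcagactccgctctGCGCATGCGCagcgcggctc
Atp5g2 (chr15:102670998-102671297, minus strand): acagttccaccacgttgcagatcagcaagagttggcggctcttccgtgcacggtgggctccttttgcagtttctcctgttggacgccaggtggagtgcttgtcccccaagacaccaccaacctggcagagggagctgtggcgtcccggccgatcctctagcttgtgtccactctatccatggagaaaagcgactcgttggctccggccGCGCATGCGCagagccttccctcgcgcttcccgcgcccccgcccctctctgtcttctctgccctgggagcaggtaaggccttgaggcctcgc
Ndufb4 (chr16:37654319-37654618, minus strand): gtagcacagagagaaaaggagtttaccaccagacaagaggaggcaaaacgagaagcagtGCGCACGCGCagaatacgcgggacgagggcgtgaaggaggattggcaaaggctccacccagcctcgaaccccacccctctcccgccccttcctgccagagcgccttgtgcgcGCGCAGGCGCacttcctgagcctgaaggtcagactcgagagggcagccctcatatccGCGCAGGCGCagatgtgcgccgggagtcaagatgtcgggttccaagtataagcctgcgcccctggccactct
Cox7a1 (chr7:30183921-30184220, plus strand): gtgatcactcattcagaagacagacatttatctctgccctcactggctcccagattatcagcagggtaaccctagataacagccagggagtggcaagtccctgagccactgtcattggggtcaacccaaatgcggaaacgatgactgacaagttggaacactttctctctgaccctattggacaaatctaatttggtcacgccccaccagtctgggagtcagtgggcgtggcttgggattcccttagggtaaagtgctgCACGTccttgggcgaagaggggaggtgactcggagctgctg
An entry was found for 74 of the 91 genes, and Ndufa4l2 and Cox4i2 were not among them. The NRF1-type motif lay in 18 of these 74 windows, 24.3%, against 5.19% of 27025 gene windows. It lay in 7 of 32 complex I windows, 2 of 3 for complex II, 1 of 5 for complex III, 1 of 14 for complex IV and 6 of 14 for complex V. The hypoxia core lay in 27.0% of the members' windows, among them those of Cox7a1, Cox5a and Atp5g2, against 21.8% of all. AAGATGGC, of the YY1 type, lay in 14.9% against 3.19% of all, CCGGAAGT, of the ETS type, in 6.76% against 4.31%, and TCAAGGTCA, of the ERR type, in 2.70% against 0.466%. The genes with the NRF1-type motif did not move one way: with TGF-beta, Uqcrc1 and Atp5g2 were higher in K36M than in WT and Ndufb4 was lower, as given below. A match is a description of letters, not of binding.

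Among the common subunits of complex IV, Cox5a, the nuclear-encoded subunit 5a that is present in every form of the enzyme, went opposite ways in the K36M comparisons. Cox5a (mm9, chr9:57369039-57380231, plus strand) had 79.2 and 75.8 CPM in K36M with TGF-beta, 119 and 112 CPM in K36M with Repsox, 110 and 103 CPM in WT with TGF-beta and 92.6 and 90.2 CPM in WT with Repsox. K36M with TGF-beta was the lowest group, K36M with Repsox the highest, and no groups overlapped. K36M was higher than WT with Repsox by 0.34 ± 0.08 (adjusted p = 0.00136) and lower with TGF-beta by -0.46 ± 0.08 (adjusted p = 4.57e-05). With TGF-beta against Repsox it fell by 0.58 ± 0.08 in K36M (adjusted p = 5.11e-06), and the effect in K36M differed from that in WT by -0.80 ± 0.12 (adjusted p = 5.94e-06). In WT the difference of 0.22 ± 0.08 (adjusted p = 0.0238) was lost under 4 of 19 alternatives, among them library totals alone, where it was 0.02, and leaving out WT TGF-beta replicate 1. Of its exon bases, 38.7% overlap the antisense gene Gm17596, and reads of the 2 could not be told apart if strand was not used in counting. Within a library, free of any scaling between libraries, the ratio of Cox5a to Cox4i1 counts was 0.260 and 0.292 in K36M with TGF-beta, 0.460 and 0.452 in K36M with Repsox, 0.368 and 0.339 in WT with TGF-beta and 0.332 and 0.349 in WT with Repsox.

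Cox6b1, which joins the monomers of the complex on the side of the intermembrane space, had 146 and 134 CPM in K36M with TGF-beta, 169 and 161 CPM in K36M with Repsox, 189 and 185 CPM in WT with TGF-beta and 143 and 150 CPM in WT with Repsox. WT with TGF-beta lay above every other library. Cox6b1 was lower in K36M than in WT with TGF-beta by -0.42 ± 0.08 (adjusted p = 5.07e-05). It rose by 0.35 ± 0.08 with TGF-beta against Repsox in WT (adjusted p = 0.00038) and fell by 0.24 ± 0.08 in K36M (adjusted p = 0.0141), a difference of -0.59 ± 0.11 (adjusted p = 9.29e-05). The rise in WT was 0.14 with library totals alone and was then not called. The fall in K36M was lost under 5 of 19 alternatives, at -0.18 with upper-quartile factors, -0.13 with the length trend removed, -0.20 without K36M Repsox replicate 1 and -0.18 without K36M TGF-beta replicate 2. Cox6b2, its testis form, had 53.5 and 53.0 CPM in K36M with TGF-beta, 37.1 and 41.8 in K36M with Repsox, 63.7 and 67.3 in WT with TGF-beta and 48.1 and 51.9 in WT with Repsox. It was higher with TGF-beta than with Repsox in both genotypes, by 0.43 ± 0.10 in K36M (adjusted p = 0.000751) and 0.39 ± 0.09 in WT (adjusted p = 0.000954), where library totals alone gave 0.18 and no call. Unlike the alternative forms above, Cox6b2 was lower in K36M than in WT, by -0.34 with Repsox (adjusted p = 0.00457) and -0.30 with TGF-beta (adjusted p = 0.00733). The first call was lost under 1 of 19 alternatives, without K36M Repsox replicate 1 at -0.26. The second was lost under 3 of 19, at -0.10 with library totals, -0.17 with upper-quartile factors and -0.26 without WT TGF-beta replicate 2. Per kilobase, Cox6b2 made up 18.0 to 25.9% of its pair with Cox6b1 in the group means, lowest in K36M with Repsox.

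Over all 17 tested subunits of complex IV, 4 were higher and 7 lower in K36M than in WT with TGF-beta (median -0.10), and 6 were higher and 1 lower with Repsox (median 0.17, or 5 and 1 and a median of 0.09 without WT Repsox replicate 1). In WT, TGF-beta against Repsox gave 8 higher and 3 lower (median 0.17, or 6 and 3 and a median of 0.14 without that library), and in K36M it gave 2 higher and 4 lower (median -0.11). The complex IV counts with TGF-beta depended on the scaling. With library totals alone, K36M against WT gave 6 higher and 3 lower (median 0.10), and TGF-beta against Repsox in WT gave 1 higher and 3 lower (median -0.04). With a trend on transcript length removed, these became 4 higher and 13 lower (median -0.53) and 13 higher and 2 lower (median 0.54). Cox7b, with 69.7 and 79.0 CPM in K36M with TGF-beta, 102 and 93.7 in WT with TGF-beta and 59.0 and 88.6 in WT with Repsox, shows how 1 library weighs on the comparison in WT. Its libraries of K36M with Repsox had 79.5 and 81.3 CPM. Cox7b rose by 0.41 ± 0.12 with TGF-beta against Repsox in WT (adjusted p = 0.00642), and without WT Repsox replicate 1 this was 0.14 and not called. For Cox7c, named after its values were seen, the rise in WT was 0.42 ± 0.12 (adjusted p = 0.00554), and without that library it was 0.21 and not called. Cox7a2l, a relative of subunit 7a that links complexes III and IV, was higher in K36M than in WT with Repsox by 0.21 ± 0.08 (adjusted p = 0.0368) and higher with TGF-beta than with Repsox in WT by 0.20 ± 0.08 (adjusted p = 0.0386), and each call was lost under 11 of 19 alternatives. Without 1 library the first lost its call at 0.17 to 0.24 for WT Repsox replicate 2, either WT TGF-beta and either K36M Repsox library, and the second at 0.17 to 0.23 for WT Repsox replicate 2, either WT TGF-beta and every K36M library. Cox8a was higher with TGF-beta than with Repsox in WT by 0.21 ± 0.09 (adjusted p = 0.0340), a call lost under 10 of 19, among them at 0.12 to 0.21 without WT Repsox replicate 1, WT TGF-beta replicate 1 or any K36M library.

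**Figure D3:**
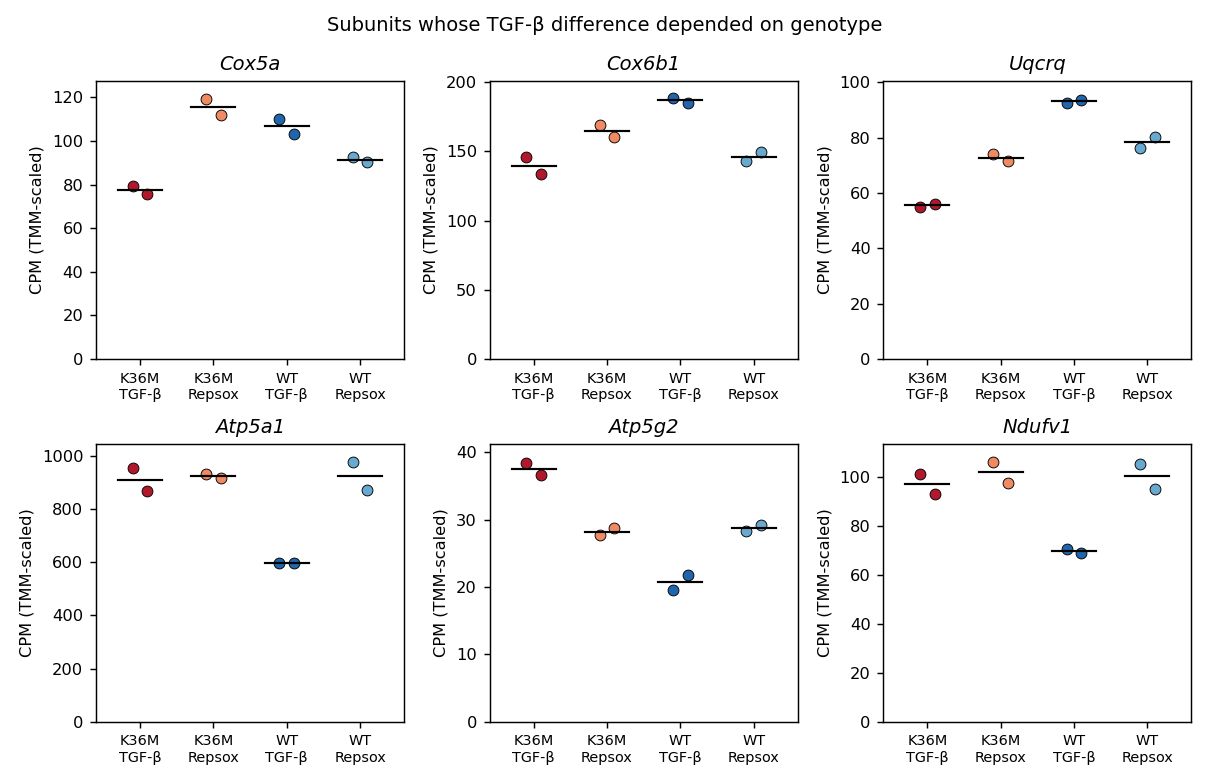
Level in CPM on TMM-scaled library sizes (y axis) of 6 subunits of complexes I, III, IV and V in the 4 groups (x axis), with a point for each of the 2 libraries and a line at their mean. Cox5a and Uqcrq are lowest in K36M with TGF-beta, and Atp5a1 and Ndufv1 are lowest in WT with TGF-beta, where Atp5a1 has 596 CPM in each library.

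In complex V, the alpha and beta subunits of the catalytic head were lowest in WT with TGF-beta. Atp5a1, the alpha subunit, had 953 and 867 CPM in K36M with TGF-beta, 932 and 918 CPM in K36M with Repsox, 596 and 596 CPM in WT with TGF-beta and 976 and 871 CPM in WT with Repsox. WT with TGF-beta lay below the other 6 libraries, which overlapped each other. Atp5a1 was higher in K36M than in WT with TGF-beta by 0.61 ± 0.07 (adjusted p = 2.30e-08), and it fell by 0.63 ± 0.07 with TGF-beta against Repsox in WT (adjusted p = 1.67e-08). With Repsox the genotypes differed by 0.00, and in K36M the treatments by -0.02. The beta subunit Atp5b, with which it forms the catalytic hexamer, had 1279 and 1223 CPM in K36M with TGF-beta, 1316 and 1270 in K36M with Repsox, 1134 and 1137 in WT with TGF-beta and 1295 and 1233 in WT with Repsox. Its calls, 0.14 ± 0.06 for K36M against WT with TGF-beta (adjusted p = 0.0300) and -0.16 ± 0.06 for TGF-beta against Repsox in WT (adjusted p = 0.0192), were lost under 10 and 7 of 19 alternatives. The first was 0.11 to 0.14 without either WT TGF-beta library, either K36M Repsox library or K36M TGF-beta replicate 1, and the second -0.16 to -0.12 without WT Repsox replicate 1 or either WT TGF-beta library. The ratio of Atp5a1 to Atp5b counts within a library was 0.745 and 0.709 in K36M with TGF-beta, 0.708 and 0.723 in K36M with Repsox, 0.526 and 0.524 in WT with TGF-beta and 0.754 and 0.706 in WT with Repsox.

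The c subunit of the membrane ring is encoded by 3 genes, Atp5g1, Atp5g2 and Atp5g3, that give the same mature protein. Atp5g2 (mm9, chr15:102493299-102501478, minus strand) had 38.4 and 36.7 CPM in K36M with TGF-beta, 27.8 and 28.7 CPM in K36M with Repsox, 19.5 and 21.8 CPM in WT with TGF-beta and 28.4 and 29.2 CPM in WT with Repsox. K36M with TGF-beta was above and WT with TGF-beta below the Repsox groups, which lay side by side. Its log2 fold change of K36M against WT with TGF-beta was 0.86 ± 0.12 (adjusted p = 9.13e-07). With TGF-beta against Repsox it rose by 0.41 ± 0.11 in K36M (adjusted p = 0.00430) and fell by 0.47 ± 0.12 in WT (adjusted p = 0.00135), a difference of 0.88 ± 0.16 (adjusted p = 9.08e-05). With the length trend removed, the fall in WT was -0.07 and not called. Atp5g1 was lower in K36M than in WT with TGF-beta by -0.43 ± 0.09 (adjusted p = 0.000291). For Atp5g3 the same difference was -0.21 ± 0.08 (adjusted p = 0.0229), and it was not called with library totals at -0.02, with upper-quartile factors at -0.09, without WT TGF-beta replicate 1 at -0.18 or without K36M TGF-beta replicate 2 at -0.15. Per kilobase, Atp5g2 made up 44.5 ± 0.889% of the 3 genes in K36M with TGF-beta, 35.9 ± 1.33% in K36M with Repsox, 27.1 ± 2.15% in WT with TGF-beta and 34.1 ± 0.814% in WT with Repsox. The size of these shares rests on the annotated exon lengths, 4908 bases for Atp5g1, 647 for Atp5g2 and 2181 for Atp5g3. By counts Atp5g2 was the smallest of the 3 in every group, with 911 of 5468 in K36M with TGF-beta. A copy elsewhere in the genome matches the whole Atp5g2 transcript, so its counts depend on how such reads were assigned. Atp5j2, the f subunit of the membrane part, was lower in K36M than in WT by -0.57 ± 0.10 with TGF-beta (adjusted p = 2.00e-05) and -0.39 ± 0.09 with Repsox (adjusted p = 0.00139).

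Of the 8 subunits of complex III, 1 was higher and 2 were lower in K36M than in WT with TGF-beta, and 2 were higher with Repsox. Uqcrc1 (mm9, chr9:108838661-108851685, plus strand), a core protein facing the matrix and the complex III subunit with the highest level per kilobase, had 258 and 243 CPM in K36M with TGF-beta, 255 and 229 CPM in K36M with Repsox, 193 and 184 CPM in WT with TGF-beta and 258 and 236 CPM in WT with Repsox. WT with TGF-beta lay below the other libraries, which overlapped. It was higher in K36M with TGF-beta by 0.41 ± 0.08 (adjusted p = 6.73e-05) and fell by 0.39 ± 0.08 with TGF-beta against Repsox in WT (adjusted p = 0.000153). With the length trend removed these were -0.01 and -0.08, and neither was called. Uqcrq, a small subunit near the ubiquinone site, had 55.1 and 56.0 CPM in K36M with TGF-beta, 74.1 and 71.4 CPM in K36M with Repsox, 92.7 and 93.8 CPM in WT with TGF-beta and 76.4 and 80.2 CPM in WT with Repsox. WT with TGF-beta was its highest group and K36M with TGF-beta its lowest. Uqcrq was lower in K36M than in WT with TGF-beta by -0.75 ± 0.08 (adjusted p = 4.56e-08), and fell by 0.39 ± 0.08 with TGF-beta against Repsox in K36M (adjusted p = 0.000514). Uqcrb was higher in K36M than in WT with Repsox by 0.68 ± 0.16 (adjusted p = 0.000741), and without WT Repsox replicate 1 by 0.38. In WT it rose by 0.45 ± 0.16 with TGF-beta against Repsox (adjusted p = 0.0178), a call that was lost without that library at 0.15, without WT TGF-beta replicate 2 at 0.36 and with library totals at 0.24.

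Of the 36 subunits of complex I, 9 were higher and 5 lower in K36M than in WT with TGF-beta (median 0.08), and 9 were higher and 2 lower with Repsox (median 0.08, or 7 and 3 and a median of 0.04 without WT Repsox replicate 1). The arm that takes electrons from NADH included 2 genes that were low in WT with TGF-beta. This did not hold for the whole arm, as Ndufa2 and Ndufa12, also part of it and given below, had their lowest levels in other groups. Ndufv1, named after its values were seen, which carries the flavin that accepts electrons from NADH, had 101 and 92.9 CPM in K36M with TGF-beta, 106 and 97.2 CPM in K36M with Repsox, 70.2 and 68.7 CPM in WT with TGF-beta and 105 and 95 CPM in WT with Repsox. It was higher in K36M with TGF-beta by 0.48 ± 0.09 (adjusted p = 5.29e-05) and fell by 0.53 ± 0.09 with TGF-beta against Repsox in WT (adjusted p = 1.97e-05), while the other 3 groups overlapped. Ndufv3, an accessory subunit of the same module, had 52.8 and 57.3 CPM in K36M with TGF-beta, 75.3 and 74.6 CPM in K36M with Repsox, 33.9 and 30.9 CPM in WT with TGF-beta and 50.1 and 50.1 CPM in WT with Repsox. No groups overlapped. It was higher in K36M under both agents, by 0.77 ± 0.10 with TGF-beta (adjusted p = 3.03e-07) and 0.58 ± 0.09 with Repsox (adjusted p = 9.96e-06). It fell with TGF-beta against Repsox in both genotypes, by 0.45 ± 0.09 in K36M (adjusted p = 0.000288) and 0.63 ± 0.10 in WT (adjusted p = 5.61e-06), and the difference of 0.18 between these effects did not pass the test.

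Ndufb4 and Ndufa1, accessory subunits of the membrane arm, were lower in K36M than in WT with TGF-beta. Ndufb4 (mm9, chr16:37647256-37654539, minus strand) had 5.94 and 7.25 CPM in K36M with TGF-beta, 8.76 and 8.61 CPM in K36M with Repsox, 13.6 and 13.1 CPM in WT with TGF-beta and 4.65 and 9.14 CPM in WT with Repsox. WT with TGF-beta was above every other library, and the WT libraries with Repsox lay on both sides of the K36M ones. Ndufb4 was lower in K36M than in WT with TGF-beta by -1.02 ± 0.24 (adjusted p = 0.000621). In WT it rose by 0.97 ± 0.23 with TGF-beta against Repsox (adjusted p = 0.00101), and by 0.54, still called, without WT Repsox replicate 1. Ndufa1 had 12.0 and 12.0 CPM in K36M with TGF-beta, 16.5 and 16.7 in K36M with Repsox, 20.1 and 18.5 in WT with TGF-beta and 14.8 and 18.4 in WT with Repsox. K36M with TGF-beta was its lowest group, below WT with TGF-beta by -0.69 ± 0.15 (adjusted p = 0.000388) and below K36M with Repsox by -0.47 ± 0.15 (adjusted p = 0.0149), the second of which was lost under 7 of 19 alternatives, at -0.49 to -0.47 without any 1 K36M library. Ndufb6, in the same arm, rose by 0.43 ± 0.11 with TGF-beta against Repsox in K36M (adjusted p = 0.00272), a call lost without K36M Repsox replicate 1 at 0.36 and without K36M TGF-beta replicate 1 at 0.31. Ndufb9, the complex I subunit with the highest level per kilobase, was called in no comparison.

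Ndufa12 and Ndufa2, accessory subunits of the arm that lies in the matrix, were the complex I subunits with the largest differences between K36M and WT with Repsox. Ndufa12 had 30.7 and 32.5 CPM in K36M with TGF-beta, 31.6 and 37.1 CPM in K36M with Repsox, 27.4 and 27.3 CPM in WT with TGF-beta and 13.8 and 22.7 CPM in WT with Repsox. WT with Repsox lay below all other groups, with its libraries far apart. Ndufa12 was higher in K36M with Repsox by 0.92 ± 0.16 (adjusted p = 3.93e-05), and by 0.59, still called, without WT Repsox replicate 1. Its rise of 0.59 ± 0.16 with TGF-beta against Repsox in WT (adjusted p = 0.00312) was 0.27 and not called without that library, and 0.38 and not called with library totals. Ndufa2 had 43.5 and 37.8 CPM in K36M with TGF-beta, 25.9 and 21.1 CPM in K36M with Repsox, 39.0 and 38.0 CPM in WT with TGF-beta and 44.3 and 29.5 CPM in WT with Repsox. It was lower in K36M than in WT with Repsox by -0.65 ± 0.15 (adjusted p = 0.000871), or by -0.32 without WT Repsox replicate 1, and rose by 0.79 ± 0.15 with TGF-beta against Repsox in K36M (adjusted p = 0.000162). Ndufa7, named after its values were seen, was higher in K36M than in WT with both agents, by 0.54 ± 0.09 with TGF-beta (adjusted p = 1.18e-05) and 0.38 ± 0.09 with Repsox (adjusted p = 0.00113), and the first was 0.13 and not called with the length trend removed.

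Complex II, which has 4 nuclear-encoded subunits and no mitochondrial one, had no call in K36M against WT with Repsox. With TGF-beta, Sdhb, the iron-sulfur subunit, and Sdhc, a membrane anchor, went opposite ways, and both were described in full after their values were seen. Sdhb had 61.4 and 52.9 CPM in K36M with TGF-beta, 63.5 and 58.3 CPM in K36M with Repsox, 79.5 and 77.5 CPM in WT with TGF-beta and 63.0 and 63.3 CPM in WT with Repsox. WT with TGF-beta was above every other library, and K36M was lower there by -0.46 ± 0.09 (adjusted p = 0.000134). Sdhc had 107 and 106 CPM in K36M with TGF-beta, 84.6 and 86.5 CPM in K36M with Repsox, 86.4 and 81.3 CPM in WT with TGF-beta and 85.3 and 91.6 CPM in WT with Repsox. K36M with TGF-beta was above every other library, by 0.34 ± 0.08 against WT with TGF-beta (adjusted p = 0.00087) and 0.32 ± 0.08 against K36M with Repsox (adjusted p = 0.00308). Sdhd, the other anchor and the complex II subunit with the highest level per kilobase, rose by 0.24 ± 0.08 with TGF-beta against Repsox in K36M (adjusted p = 0.0201), a call lost with no filter on low counts at 0.23, without K36M Repsox replicate 1 or 2 at 0.26 and 0.21, and without K36M TGF-beta replicate 1 at 0.20. Sdha, the flavoprotein that oxidises succinate, had 212 and 207 CPM in K36M with TGF-beta, 250 and 239 in K36M with Repsox, 198 and 192 in WT with TGF-beta and 216 and 220 in WT with Repsox.

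The levels were also summed over the subunits of each complex. Complex I had 1938 and 1800 CPM in K36M with TGF-beta, 1900 and 1830 in K36M with Repsox, 1742 and 1754 in WT with TGF-beta and 1723 and 1754 in WT with Repsox. Complex IV had 1385 and 1298 CPM in K36M with TGF-beta, 1373 and 1364 in K36M with Repsox, 1495 and 1453 in WT with TGF-beta and 1204 and 1304 in WT with Repsox. Complex V had 3376 and 3125 CPM in K36M with TGF-beta, 3389 and 3295 in K36M with Repsox, 2846 and 2820 in WT with TGF-beta and 3397 and 3276 in WT with Repsox. On this scale WT with TGF-beta held the highest complex IV sums and the lowest complex V sums, outside the range of every other library. With library totals alone the complex IV sums of 1361 and 1298 CPM in WT with TGF-beta lay among 1236 to 1417 CPM in the other groups, while its complex V sums, 2591 and 2518 CPM, were still the lowest. Atp5a1 and Atp5b make up much of the complex V sum, so it does not stand for every subunit. Of 15 tested complex V subunits, 4 were higher and 5 lower in K36M than in WT with TGF-beta (median 0.10). In WT, TGF-beta against Repsox gave 0 higher and 4 lower (median -0.09). With library totals alone these counts became 9 and 3, and 0 and 10. The log2 ratio of the sums in WT, TGF-beta over Repsox, was 0.23 for complex IV and -0.24 for complex V, and 0.02 and -0.44 with library totals alone. The ratio of complex IV to complex V counts within a library does not depend on that scaling. It was 0.410 and 0.416 in K36M with TGF-beta, 0.405 and 0.414 in K36M with Repsox, 0.525 and 0.516 in WT with TGF-beta and 0.354 and 0.398 in WT with Repsox. Summed per kilobase, it was 1.63 and 1.66 in K36M with TGF-beta, 1.65 and 1.67 in K36M with Repsox, 2.10 and 2.07 in WT with TGF-beta and 1.45 and 1.58 in WT with Repsox. An exact permutation test of 2 libraries against 2 cannot go below a two-sided p of 0.333, so none is given for these sums.

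**Figure D4:**
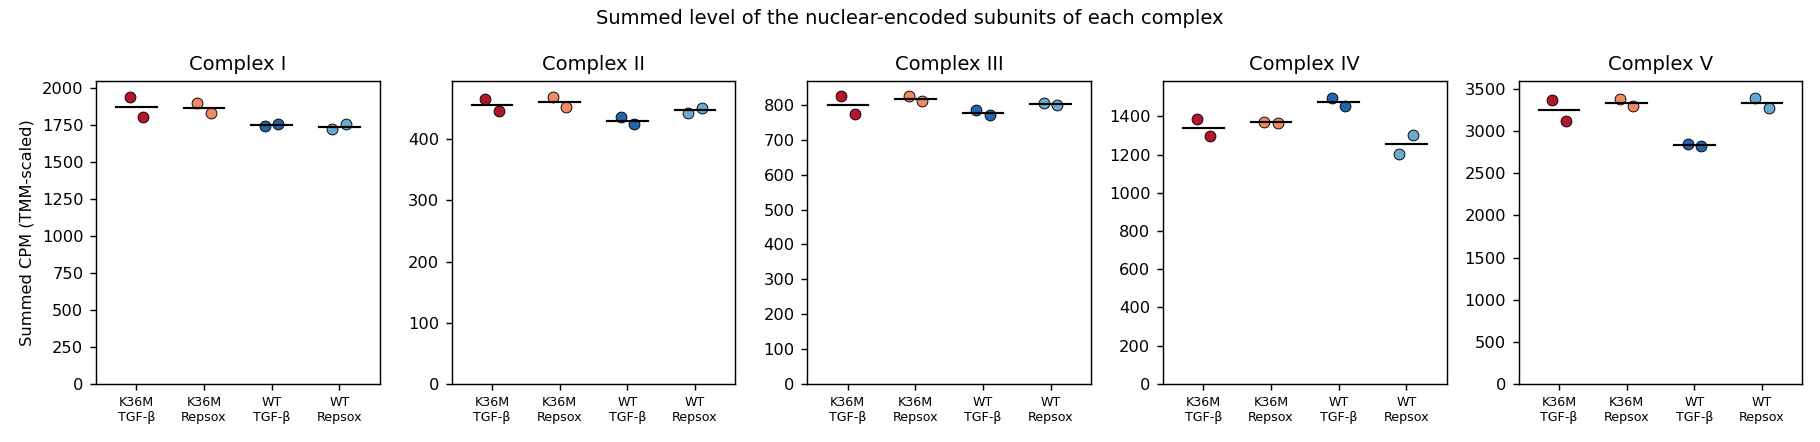
Summed level in CPM on TMM-scaled library sizes (y axis, from 0) of the subunits of complexes I to V in the 4 groups (x axis), with a point for each of the 2 libraries and a line at their mean. On this scale WT with TGF-beta has the highest complex IV sums, 1495 and 1453 CPM, and the lowest complex V sums, 2846 and 2820 CPM.

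The genes kept apart from the complexes held some of the larger differences. Atp5sl, which is known to assist complex I assembly despite its symbol, had 23.5 and 21.7 CPM in K36M with TGF-beta, 25.4 and 21.2 CPM in K36M with Repsox, 7.32 and 11.2 CPM in WT with TGF-beta and 27.0 and 21.4 CPM in WT with Repsox. WT with TGF-beta lay below all other libraries, and K36M was higher there by 1.27 ± 0.18 (adjusted p = 1.50e-06). Ndufaf3, a complex I assembly factor, had 15.4 and 17.0 CPM in K36M with TGF-beta, 14 and 16.1 CPM in K36M with Repsox, 4.65 and 5.74 CPM in WT with TGF-beta and 9.64 and 11.6 CPM in WT with Repsox. It showed the same low group, with K36M higher by 1.63 ± 0.19 with TGF-beta (adjusted p = 1.01e-07). In WT, TGF-beta against Repsox gave -1.37 for Atp5sl (adjusted p = 4.75e-07) and -1.02 for Ndufaf3 (adjusted p = 0.00011). Ndufaf2 and Ndufaf4, also assembly factors, were lower in K36M than in WT with TGF-beta, by -0.91 ± 0.22 (adjusted p = 0.000968) and -0.93 ± 0.16 (adjusted p = 2.50e-05). With Repsox they were lower by -0.99 ± 0.23 (adjusted p = 0.000712) and -0.48 ± 0.16 (adjusted p = 0.0140). The second call was lost without WT Repsox replicate 2, at -0.18, or K36M Repsox replicate 1, at -0.47. Without WT Repsox replicate 1 the second value was -0.735. Ndufaf2 was named after its values were seen. Cox4nb, a subunit of a membrane protein insertion complex of the endoplasmic reticulum and a neighbour of Cox4i1, was lower in K36M than in WT with Repsox by -0.51 ± 0.11 (adjusted p = 0.00046).

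The direction of the members' calls depended on how the libraries were scaled wherever WT with TGF-beta entered. For K36M against WT with TGF-beta, the 21 higher and 22 lower members became 36 and 14 with upper-quartile factors, 45 and 13 with library totals alone, and 11 and 51 with the length trend removed. Calls over all genes moved the same way, with 43.2% higher and 27.7% lower with library totals and 32.5% higher and 39.1% lower with the length trend removed. For TGF-beta against Repsox in WT, the 18 higher and 16 lower became 23 and 10 with RLE factors, 10 and 18 with upper-quartile factors, 2 and 34 with library totals and 56 and 7 with the length trend removed, and 14 and 15 without WT Repsox replicate 1. Over all genes there, 21.7% were higher and 42.5% lower with library totals and 35.4% higher and 28.3% lower with the length trend removed. In K36M, the 16 higher and 15 lower became 17 and 9 with upper-quartile factors. For the difference between genotypes in the effect of TGF-beta, 16 positive and 13 negative became 19 and 9 with upper-quartile factors, 24 and 4 with library totals, and 6 and 42 with the length trend removed, where all genes had 36.3% positive and 15.7% negative calls and 23.9% positive and 28.3% negative ones. For K36M against WT with Repsox, the 20 higher and 7 lower became 18 and 16 with the length trend removed and 16 and 10 without WT Repsox replicate 1. Library totals moved the median of all genes by 0.20 for K36M against WT with TGF-beta, by -0.21 for TGF-beta against Repsox in WT and by 0.22 for the difference. Set against that median, the members stood at 0.02, 0.11 and -0.12 under all 4 scalings without length, and at -0.22, 0.24 and -0.25 with the length trend removed, so the first changed sign. Transcripts of 75 subunits with an average log2 CPM of at least 3 were short, with a median exon length of 1322 bases against 3494 over all genes.

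**Figure D5:**
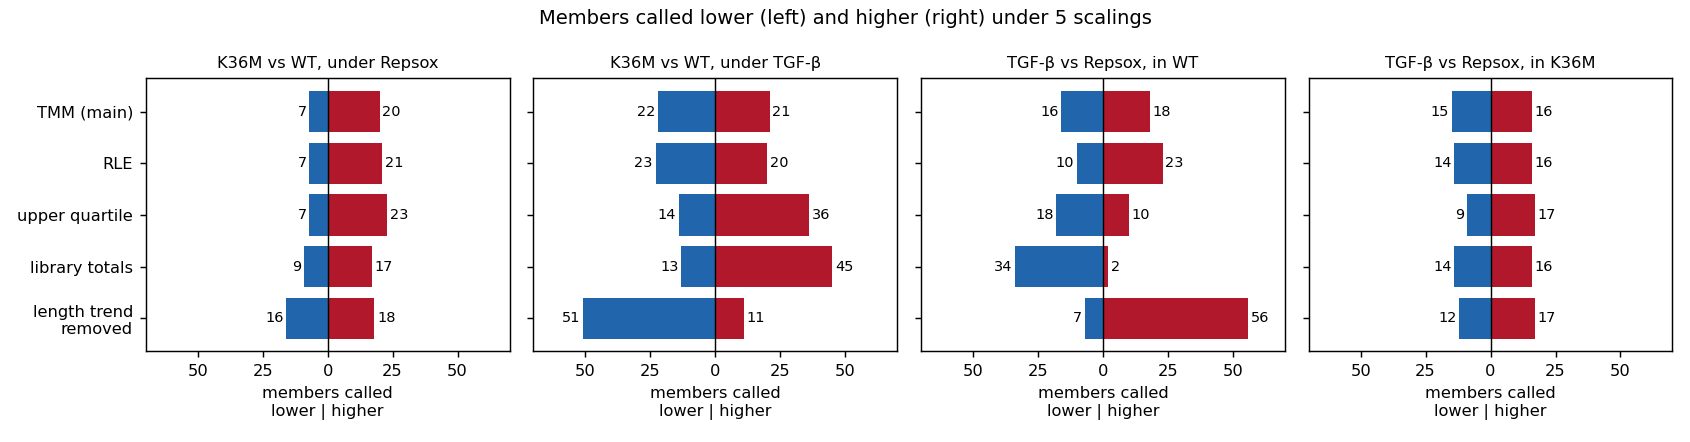
Number of the 87 tested members called higher and lower (x axis) under TMM, RLE and upper-quartile factors, library totals alone and removal of a length trend (y axis) in 4 comparisons. Both comparisons that hold WT with TGF-beta change their balance with the scaling, for example from 18 higher and 16 lower under TMM to 2 and 34 under library totals in WT.

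Lists of other genes of energy metabolism, written from general knowledge, were counted in the same fit. Of 16 tested genes of glycolysis, 15 were higher and 1 lower in K36M than in WT with TGF-beta (median 1.03), and 14 were higher with Repsox (median 0.71). Slc2a1, the glucose transporter, was higher in K36M by 4.54 with TGF-beta and by 1.63 with Repsox. Of 17 tested genes of mitochondrial biogenesis and mitochondrial DNA expression, 10 were higher and 2 lower in K36M with TGF-beta (median 0.34), and 1 rose and 10 fell with TGF-beta against Repsox in WT (median -0.39). Lonp1, a matrix protease, fell there by 1.28 ± 0.09. Of 22 tested genes of the citric acid cycle and pyruvate dehydrogenase, 3 rose and 15 fell with TGF-beta against Repsox in K36M (median -0.30), and 14 were higher and 3 lower in K36M than in WT with Repsox (median 0.29). In K36M against WT with TGF-beta, 8 of them were higher and 7 lower (median 0.03). Idh2, a mitochondrial isocitrate dehydrogenase, fell by 1.25 in K36M with TGF-beta. Of 76 mitochondrial ribosomal proteins, 22 were higher and 18 lower in K36M than in WT with TGF-beta. Of 95 cytosolic ribosomal proteins, 74 were higher and 6 lower in that comparison (median 0.36), and 2 rose and 45 fell with TGF-beta against Repsox in WT (median -0.18). Of 10 tested electron carriers and related genes outside the rule, 3 were higher and 4 lower in K36M than in WT with TGF-beta, and of 26 assembly factors 6 were higher and 7 lower.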

How the data were processed

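Gene expression was measured by RNA-seq in 8 libraries, grouped by genotype and treatment from the labels. The deposited values were raw counts of reads per gene, not normalized by the authors. The tools named in the submitters' processing notes are edgeR, HTSeq 0.11.2 and STAR 2.5.0, with the mm9 build. Annotation and strand setting are not given in the sources used here. Each library held 10928302 to 15594217 counts, and the common biological coefficient of variation was 0.070.

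The whole table was fitted in R 4.3.3 with edgeR 4.0.16. After filterByExpr, 15789 genes were tested by the quasi-likelihood F test on 4 group means, with 4 residual degrees of freedom, moderated across genes. Library sizes were multiplied by TMM factors of 0.894 to 1.06. Errors of fold changes are standard errors. Levels are CPM, with TMM applied to the library sizes. Levels between genes were compared per kilobase of exon, with lengths from GENCODE vM1 on mm9, except where counts, ratios of counts or parts of a CPM sum are named. Those exceptions are not adjusted for length. Alternatives were RLE and upper-quartile factors, library totals alone, no filter or a stricter one, DESeq2 1.42.0, limma 3.58.1 with voom, a replicate block, removal of a trend on length, fits of 2 groups only, subsets of members, and leaving out each library.

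BLAST+ 2.17.0 found 16 members with over 50% of the transcript matched at 95% identity or more elsewhere in the genome, among them Atp5g2, Atp5l and Uqcrb, and 19 share exon bases with another gene, among them Cox5a, Ndufa2 and Ndufa4l2. Their counts are uncertain; 62 members had neither. Intervals and bounds on ratios cover counting error only.

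On simulated counts for K36M against WT with Repsox over 15196 genes, the fit recovered 48.0% of 100 genes changed 1.3-fold and 98.0% of 100 changed 2-fold, with 5 calls of unchanged genes. Only these genes were changed in the simulation, while 55.8% of all tested genes were called in that comparison of the data. The adjustment of p is then less strict in the data, so these rates need not hold there. The rule for description took Cox5a, the 4 called members with the largest change in each direction per comparison at an average log2 CPM of at least 3, the member of each complex with the highest level per kilobase, and the isoform pairs. Not every value of these members is printed. Others are said to have been chosen after their values were seen. The members and lists were chosen with earlier results of these data known.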

Additional observations from a re-analysis of the deposited data

Results flagged for a closer look

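For 19 of the genes described above, the effect of TGF-beta against Repsox differed between K36M and WT by the interaction test of edgeR. The described genes were picked largely by the size of their changes, some after their values were seen. Of the 87 tested members, 33.3% were called by this test, fewer than the 51.0% of all tested genes. Each value below is the log2 effect in K36M minus that in WT. The difference was positive for Ndufa4l2 at 6.04, Atp5sl at 1.32, Ndufaf3 at 1.13, Atp5g2 at 0.88, Atp5a1 at 0.61, Ndufv1 at 0.46, Uqcrc1 at 0.43, Sdhc at 0.39 and Sdhd at 0.33. It was negative for Ndufb4 at -1.37, Cox5a at -0.80, Ndufa12 at -0.71, Ndufa1 at -0.69, Uqcrq at -0.64, Cox6b1 at -0.59, Ndufa4 at -0.59, Cox7c at -0.56, Cox7b at -0.52 and Sdhb at -0.41.

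Among these, Ndufa4l2 and Atp5g2 were called in opposite directions in the genotypes, higher with TGF-beta in K36M and lower in WT, while Cox5a and Cox6b1 were called lower in K36M and higher in WT. Some of these single calls were lost under alternatives: Atp5g2 in WT under 2 of 19, Cox5a in WT under 4, and Cox6b1 in K36M under 5 and in WT under 1.

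The differences for Ndufa4l2, Atp5sl, Ndufaf3, Atp5g2, Atp5a1, Ndufb4, Cox5a, Uqcrq and Cox6b1 were called under all 18 alternatives, and the others lost the call under some. With the length trend removed, Uqcrc1 at 0.10, Ndufv1 at 0.23, Sdhc at 0.22 and Sdhd at -0.03 were not called. With library totals alone, Ndufa12 at -0.49, Ndufa1 at -0.47, Ndufa4 at -0.37, Cox7c at -0.34, Cox7b at -0.30 and Sdhb at -0.18 were not called. Without 1 library, the call was lost for Sdhd at 0.29 to 0.35 (either WT TGF-beta, either K36M Repsox, or K36M TGF-beta replicate 1), for Sdhb at -0.34 and Cox7c at -0.48 (K36M Repsox replicate 1), and for Sdhb at -0.30 and Cox7c at -0.43 (K36M TGF-beta replicate 2). It was also lost for Cox7b at -0.47 without WT TGF-beta replicate 1 and -0.43 without K36M TGF-beta replicate 1, and for Ndufa12 at -0.60 without K36M Repsox replicate 2. Without WT Repsox replicate 1, the differences for Ndufa12, Cox7b and Cox7c were -0.38, -0.26 and -0.35 and were not called, and those for Ndufb4 and Ndufa4 were -0.95 and -0.39 and were called.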

How the results depend on the processing

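Of the log2 fold changes of described genes recomputed under the alternatives, 1788 kept their direction and their side of the threshold, 160 kept their direction and lost the call, and 5 changed sign, all near 0. Those were Uqcrc1 for K36M against WT with TGF-beta at -0.0074 with the length trend removed and -0.0083 with the replicate block as well, Cox7a2l for TGF-beta against Repsox in WT at -0.0088 with library totals alone, and Sdhd for the difference between genotypes at -0.0294 with the length trend removed and -0.0299 with the block as well. The number of members called moved by over 1.5 times in 11 recomputations and by less in 98. With the length trend removed it was 63 for TGF-beta against Repsox in WT and 48 for the difference, and with the block as well 64 and 47. Over members with no copy and no shared exon it was 18 of 59 tested for TGF-beta against Repsox in K36M, beside 31 of all 87. Leaving out each library in turn gave 20 to 46 for K36M against WT with Repsox, the highest without WT Repsox replicate 2, and 33 to 45 with TGF-beta. It gave 20 to 39 for TGF-beta against Repsox in WT, the lowest without WT TGF-beta replicate 1, 16 to 35 in K36M, where each of its 4 libraries moved it, and 21 to 36 for the difference. Groups share replicate numbers, but deviations of same-numbered libraries correlated only at -0.0202 to 0.0315. This shows no broad shift common to a replicate number. It cannot tell whether same-numbered libraries shared a culture or a preparation. With the replicate block, 28 members were called for K36M against WT with Repsox, 44 with TGF-beta, 35 and 31 for TGF-beta against Repsox in WT and in K36M, and 30 for the difference. With 2 libraries a group, a lone library is assumed to vary like the other groups when 1 is left out. The cause of these changes was not tested.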
